A study of Mus musculus with 42 samples.

Results

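The mitochondrial ribosomal protein genes were taken by name: every GeneID that begins with Mrpl or Mrps followed by a digit in the table of lean mice, which gave 76 of its 13031 GeneIDs. Of these, 47 carry an Mrpl name and 29 an Mrps name. All 76 were also listed in the other 5 tables, and all 76 passed the filter on low counts, a mean of 5 normalized counts or more, in each of the 6 tables, with no member lost. The names do not track the subunits exactly. By their known place in the ribosome, 49 members belong to the large subunit and 26 to the small subunit. Mrps18a and Mrps30 sit in the large subunit in spite of their names, and Mrps36 is a component of the 2-oxoglutarate dehydrogenase complex and not of the ribosome. Ict1, also known as Mrpl58, and Mrp63 are mitochondrial ribosomal proteins that the naming rule missed, and their values are given apart.

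Mitochondria carry their own ribosome, which translates the few inner membrane subunits of the respiratory chain and of ATP synthase that are encoded by mitochondrial DNA. The ribosomal RNAs come from mitochondrial DNA, but every protein of this ribosome is encoded in the nucleus, made in the cytosol and imported, so its assembly needs the nuclear and mitochondrial genomes to be expressed together. Part of the proteins descend from bacterial ribosomal proteins and part have no bacterial counterpart. The liver is rich in mitochondria, where fatty acids are oxidized, ketone bodies are formed and the urea cycle begins.

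RNA was sequenced from whole livers of male C57BL/6J mice with or without ChemR23, the receptor encoded by Cmklr1 that binds resolvin E1 (RvE1), a resolving lipid mediator that derives from eicosapentaenoic acid. Knockout (KO) mice lacked ChemR23 in the whole body after CRISPR/Cas9 editing, and wildtype (WT) mice were their littermates. The 6 groups of 7 mice each were WT lean, KO lean, obese WT, obese KO, and both obese genotypes given RvE1. Lean mice received a diet with 10% of kcal from fat and obese mice a diet with 60% of kcal from fat, from 6 weeks of age and for 15 weeks. Obese+RvE1 mice received 300 ng of RvE1 by intraperitoneal injection on 4 consecutive days, the other 4 groups received vehicle, and livers were taken on day 5 after a fast of at least 4 hours. Each comparison has its own table, normalized apart from the others, so levels were compared within a table only.

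The libraries held 15992525 to 43841120 reads on listed genes, with a median of 24298289.5. Cmklr1 itself served as the check of genotype. Of the 2 tables that hold both genotypes, its normalized counts lay between 9.72 and 22.6 in KO and between 40.8 and 114 in WT mice on the lean diet, and between 5.08 and 23.2 in KO and between 33.3 and 102 in WT mice on the high fat diet, without overlap in either. Hepatocyte markers were present in all tables and all 7 Kupffer cell markers were listed, while 4 of 5 adipocyte markers and 4 of 5 acinar pancreas markers were not listed in the table of lean mice. In whole liver, fewer cells of a type and less RNA per cell cannot be told apart.

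Levels were set per kilobase of the principal transcript (normalized count divided by its length in GENCODE M21) before members were compared with each other. In WT lean mice the median over the 76 members was 293 normalized counts per kilobase. Mrpl12, which forms the flexible stalk of the large subunit that contacts elongation factors, had the highest level at 2538 ± 682 (SD, n = 7) per kilobase. Mrpl53 followed at 1300 ± 347, Mrpl34 at 1295 ± 203, Mrpl14 at 1088 ± 170 and Mrpl41 at 1047 ± 321 per kilobase. These last 4 levels lay within their spread of each other, and the range of Mrpl12, from 1550 to 3482, overlapped that of Mrpl53, from 795 to 1774.

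The lowest levels per kilobase were those of Mrpl48 (22.6 ± 4.15), Mrpl21 (28.1 ± 8.70), Mrps25 (28.6 ± 4.03), Mrpl47 (41.9 ± 8.99) and Mrps36 (48.4 ± 10.8), each as mean ± SD of 7 WT lean mice. Neighbours among these 5 overlapped in their ranges between mice. Several of the low members, such as Mrps25 with 6073 bases, Mrpl48 with 4285 and Mrpl47 with 3364, have long annotated transcripts, and a longer annotated than expressed form lowers a level per kilobase. Mrpl21 has only 1138 bases and was low all the same. Mrpl12 alone supplied 8.38% of the summed normalized count of all members in WT lean mice and 15.4% in KO lean mice. The spread between mice was modest for most members, with a median coefficient of variation of 16.1% in WT lean and 16.5% in KO lean mice.

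**Figure D1:**
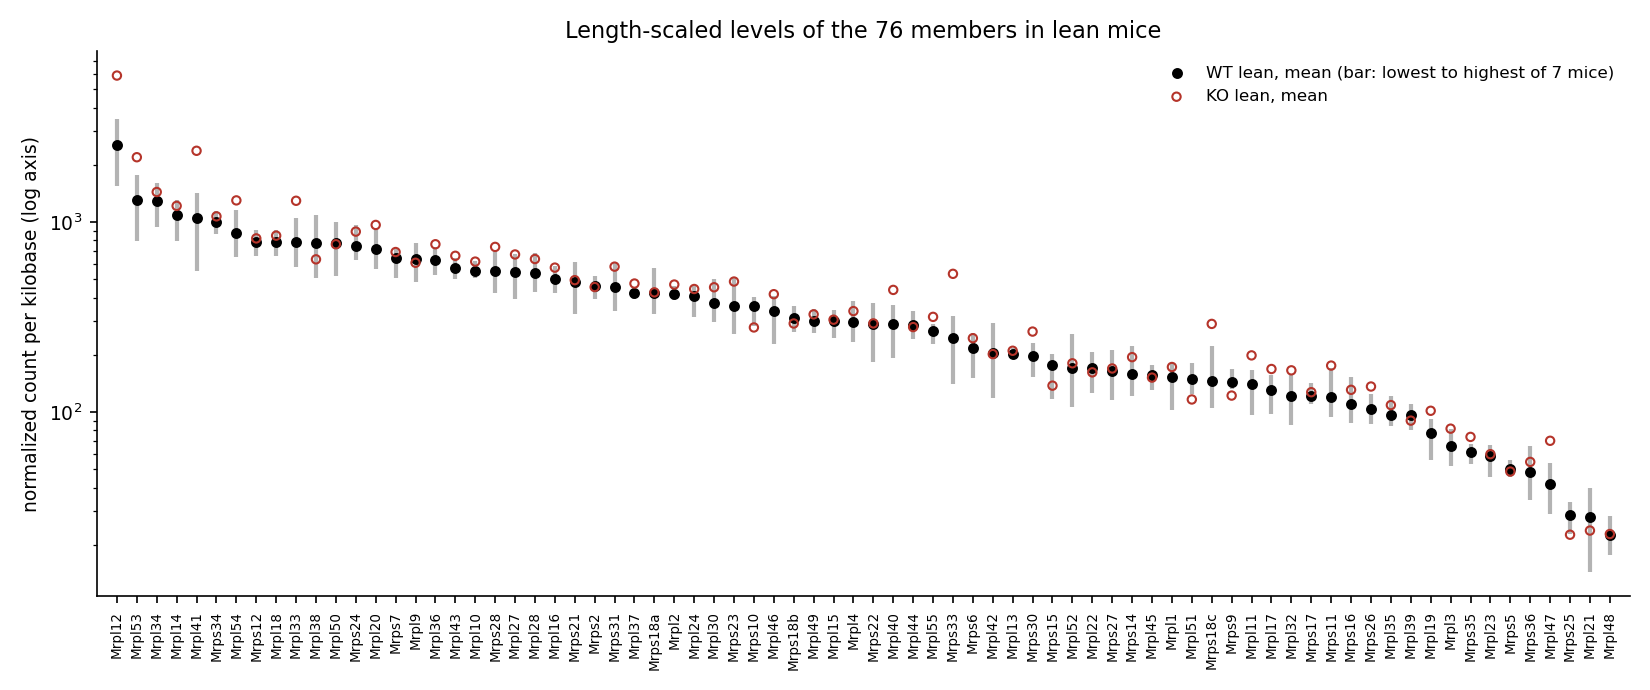
Length-scaled level of each of the 76 genes in lean mice. The vertical log axis gives the normalized count per kilobase of transcript, filled points are means of 7 WT lean mice with bars from the lowest to the highest mouse, and open points are means of 7 KO lean mice. Mrpl12 stood at the top with a mean of 2538 in WT lean mice, Mrpl48 at the bottom with 22.6, and the open points of Mrpl12, Mrpl41, Mrps33 and Mrps18c lay well above their bars.

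To evaluate the effect of ChemR23 loss on a lean diet, KO lean mice were compared with WT lean mice. Mitochondrial ribosomal protein genes were mostly higher in KO lean livers, with 59 of 76 log2 fold changes (Log2FC) above 0 and a median Log2FC of 0.15, beside a median of -0.00 over all 13031 genes tested. After correction for transcript length and GC content, described below, 45 members were above 0 and their median was 0.05. With limma and BH adjustment (calls below 0.1) and no such correction, 19 members rose and 3 fell. Over all genes, 8.00% were called higher and 8.30% lower, so 19 of 76 lay above the background and 3 of 76 below it. The changes were unequal, since Mrpl12, Mrpl41 and Mrps33 more than doubled while the median member changed little.

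Mrps33, a small subunit protein without a bacterial counterpart, had normalized counts of 155, 289 and 355 (lowest, median and highest mouse) in WT lean livers and of 281, 657 and 796 in KO lean livers. All KO lean mice but 1 lay above the highest WT lean mouse, and the groups overlapped through that single mouse. The Log2FC was 1.11 (SE 0.236, adjusted p = 0.0308), a 2.16-fold higher level. Mrps33 lies on chromosome 6 (39801804 to 39810988 of GRCm38, minus strand).

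Mrpl12, the stalk protein, had normalized counts of 2040, 3531 and 4582 in WT lean mice and of 3239, 8849 and 10951 in KO lean mice, again as lowest, median and highest. Its Log2FC of 1.16 (SE 0.251, adjusted p = 0.0334) was the highest of all members and its 95% interval ran from 0.63 to 1.69. Of the 7 KO lean mice, 6 exceeded every WT lean mouse. The gene spans 120484613 to 120489065 on the plus strand of chromosome 11.

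Mrpl41, a mitochondria-specific protein of the large subunit, ran from 431 over a median of 783 to 1099 in WT lean mice and from 719 over 2196 to 2499 in KO lean mice. Its Log2FC was 1.14 (SE 0.27, adjusted p = 0.0357), and 6 of 7 KO lean mice exceeded all WT lean mice. Mrps18c, the small subunit counterpart of bacterial protein S18, ran from 67.0 over 84.3 to 142 in WT lean and from 90.5 over 182 to 275 in KO lean mice. Its Log2FC was 0.96 (SE 0.227, adjusted p = 0.0357), with the same count of 6 of 7 above the WT range. For these 4 genes the KO lean mouse that fell within the WT range was replicate 5 (mouse 20R), which had the lowest value of its group for each. Replicate numbers were given here, in the order of the samples within each group, and are not part of the labels.

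Mrpl33, a small basic protein of the large subunit, had 276, 357 and 502 normalized counts in WT lean and 426, 543 and 998 in KO lean mice, with a Log2FC of 0.69 (SE 0.187, adjusted p = 0.0461). Mrpl54 had 396, 548 and 701 against 549, 786 and 994, with a Log2FC of 0.57 (SE 0.165, adjusted p = 0.0523). The groups overlapped for both. Among the other members called higher were Mrpl53 (Log2FC 0.73), Mrpl47 (0.70), Mrpl40 (0.59), Mrps11 (0.55), Mrpl11 (0.50) and Mrps30 (0.42), with adjusted p-values between 0.0552 and 0.0595. Mrpl11 forms the base of the stalk that Mrpl12 extends, and Mrpl47 sits near the exit of the peptide tunnel.

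The 3 members that fell in KO lean mice were Mrps10 (Log2FC -0.37, adjusted p = 0.061), Mrpl51 (Log2FC -0.35, adjusted p = 0.0567) and Mrps25 (Log2FC -0.33, adjusted p = 0.0893), 2 of them from the small subunit. Of the 14 fits that left out 1 mouse, Mrps25 was called in 4, Mrpl51 in 9 and Mrps10 in 11. Over the fits that kept all mice, the Log2FC of Mrps25 ran from -0.45 to -0.18. Mrps10 had 289, 373 and 412 normalized counts in WT lean mice and 224, 278 and 353 in KO lean mice. Only Mrps9 separated the groups fully, with 188 to 238 in WT lean and 162 to 183 in KO lean mice. Its Log2FC of -0.23 missed the threshold (adjusted p = 0.104), and it is named here after its values were seen. It is the 1 member lower without overlap, where 0.422% of all genes were, and 0 members were higher without overlap, where 0.322% of all genes were.

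Among the members with special roles, the S18 relatives differed in this comparison. Mrps18c rose, whereas Mrps18a of the large subunit had a Log2FC of 0.01 (95% interval -0.25 to 0.28) and Mrps18b of the small subunit one of -0.11 (-0.37 to 0.14). Mrps18a ran from 290 over 363 to 505 in WT lean and from 311 over 367 to 477 in KO lean mice, and Mrps18b from 283 over 339 to 392 and from 216 over 338 to 354. Mrps30 ran from 510 over 682 to 770 in WT lean and from 619 over 912 to 1040 in KO lean mice, with 6 of 7 KO lean mice above the WT range. Mrps36, the member outside the ribosome, ran from 24.2 over 34.2 to 46.7 and from 24.1 over 41.3 to 52.9 (Log2FC 0.15, 95% interval -0.28 to 0.58).

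**Figure D2:**
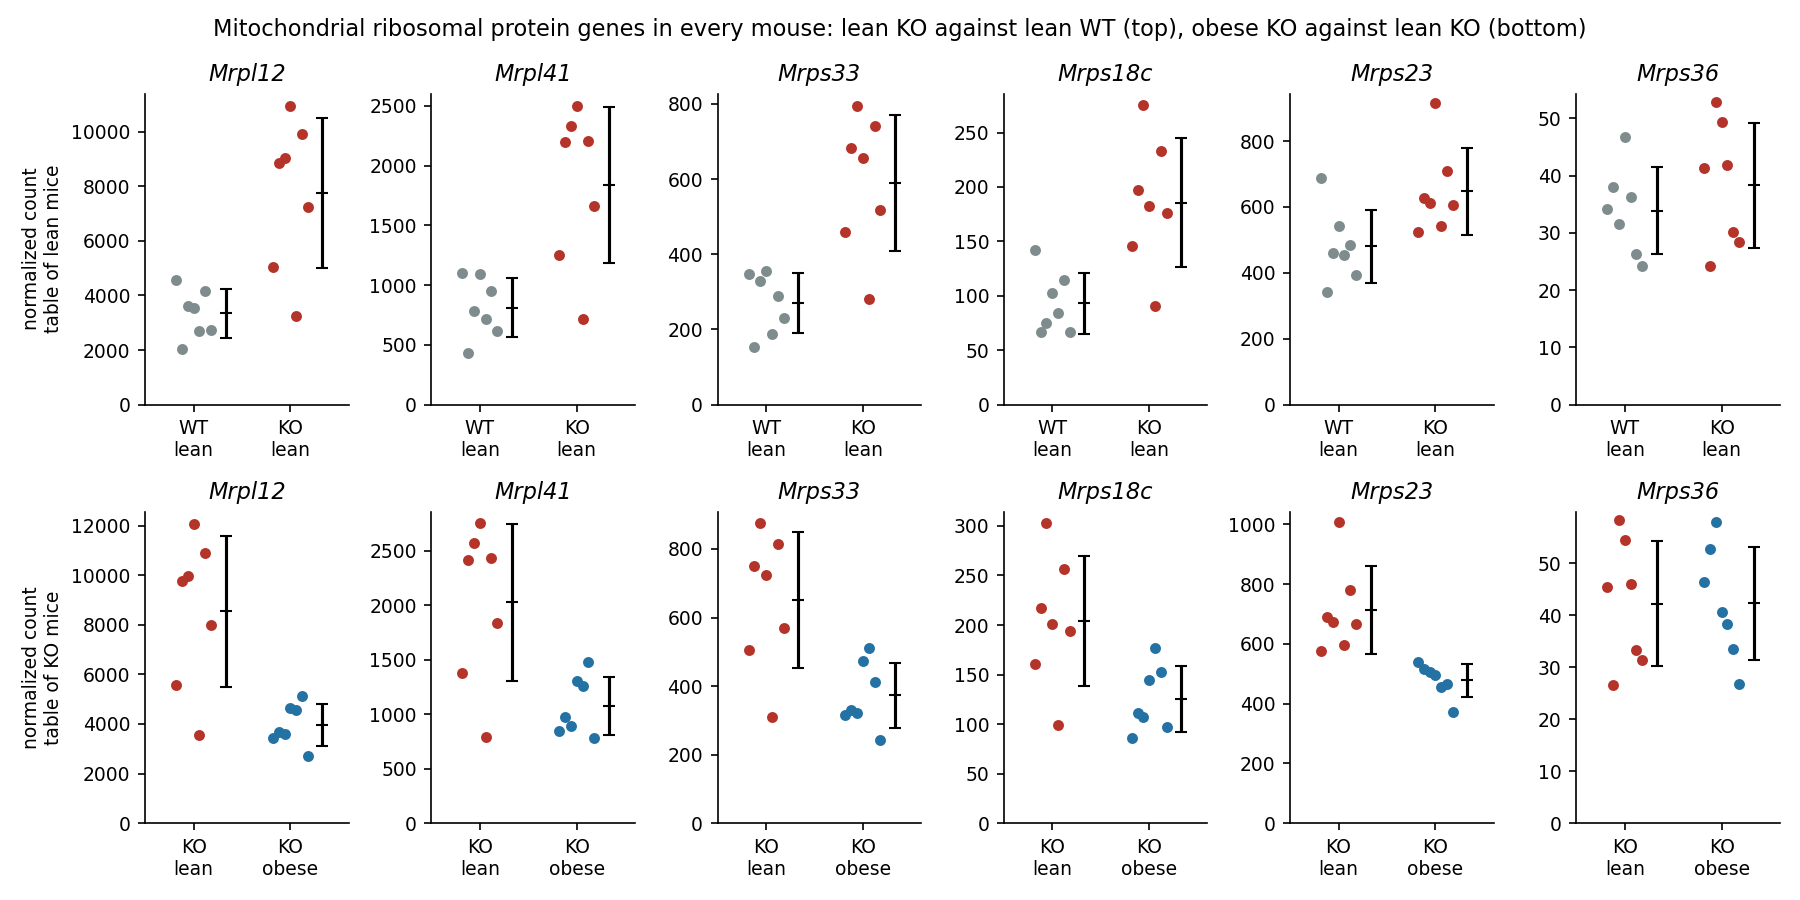
Normalized counts of 6 genes in every mouse. Each point is 1 liver, the bar beside each group gives mean and SD of 7 mice, the vertical axes start at 0, and the upper row shows the table of lean mice and the lower row the table of KO mice. KO lean points of Mrpl12, Mrpl41, Mrps33 and Mrps18c sat above the WT lean and KO obese points except for 1 or 2 mice, Mrps23 separated KO obese from KO lean mice, and Mrps36 overlapped in both rows.

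By subunit, 13 of 49 large subunit members rose and 1 fell (median Log2FC 0.17), and 6 of 26 small subunit members rose and 2 fell (median 0.09). By descent, 11 of 46 members with a bacterial homologue rose and 1 fell (median 0.17), and 8 of 27 mitochondria-specific members rose and 2 fell (median 0.11). Both subunits and both classes thus held members called in each direction. Ict1, the peptidyl-tRNA hydrolase built into the large subunit, had a Log2FC of 0.05 (SE 0.103, adjusted p = 0.775), and Mrp63, a large subunit protein named here after its values were seen, rose with a Log2FC of 0.44 (SE 0.155, adjusted p = 0.0826).

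The calls in lean mice rested on the scaling, on single mice and on which mice shared an identifier number. With equal read totals in place of the size factors, 7 members rose and 5 fell, where 3.01% of all genes rose and 13.5% fell. The median of all genes moved to -0.12, against which the members' median of 0.04 stood 0.15 higher. When the number that opens the mouse identifier entered limma as a random block, 0 members and 3 genes in all (2 higher, 1 lower) were called, which is 0.0230% of all genes. WT lean mice carried 4 such numbers and KO lean mice 3 others, so number and genotype cannot be told apart. The count of 22 fell to 5 without WT lean replicate 2, to 4 without WT lean replicate 5, and to 10, 9, 6 and 5 without KO lean replicates 2, 3, 4 and 6. The share of all genes called in these fits is not given here, so the falls cannot be set against that background. Mrpl12, Mrpl41, Mrps33 and Mrps18c were called in each of the 14 fits that left out 1 mouse.

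Markers of another cell type moved with this comparison. All 7 Kupffer cell markers (Clec4f, Vsig4, Timd4, Adgre1 (listed as Emr1), Cd5l, C1qa and C1qb) rose in KO lean mice with a median Log2FC of 0.98, and their summed normalized count ran from 8729 to 19450 in KO lean and from 3690 to 8091 in WT lean mice, without overlap. Of 3 lymphocyte markers listed, 2 rose. Of 6 hepatocyte markers, 0 were called, with a median Log2FC of -0.21. Summed counts of other marker lists overlapped between the groups. In KO lean and WT lean mice, respectively, sinusoidal endothelial markers spanned 3789 to 5730 and 3192 to 4902, and stellate markers 4795 to 8186 and 5665 to 8432. The 2 erythroid markers listed spanned 6378 to 41078 and 1324 to 32230. KO lean libraries were also deeper, with a median of 25203326 reads against 19594222. Their part in the result was not tested.

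The promoters of the 5 members with the smallest p among those called higher are shown. Their shared direction follows from this choice, and whether they vary together was not tested. Sequences are RefSeq windows of GRCm38.p6, from 250 bases before to 50 bases after the start of transcription, read 5′ to 3′ along the gene, with matches to the searched motifs in capitals. The windows are Mrps33 at chr6:39810887-39811186 on the minus strand, Mrpl12 at chr11:120484387-120484686 on the plus strand, Mrps18c at chr5:100798509-100798808 on the plus strand, Mrpl41 at chr2:24975049-24975348 on the minus strand, and Mrpl33 at chr5:31613701-31614000 on the plus strand.
Mrps33: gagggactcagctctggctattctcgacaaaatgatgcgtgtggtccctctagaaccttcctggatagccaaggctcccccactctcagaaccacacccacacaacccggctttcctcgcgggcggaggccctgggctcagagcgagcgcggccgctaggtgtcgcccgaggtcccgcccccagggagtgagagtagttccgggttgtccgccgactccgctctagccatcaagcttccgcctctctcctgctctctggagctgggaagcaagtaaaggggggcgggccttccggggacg
Mrpl12: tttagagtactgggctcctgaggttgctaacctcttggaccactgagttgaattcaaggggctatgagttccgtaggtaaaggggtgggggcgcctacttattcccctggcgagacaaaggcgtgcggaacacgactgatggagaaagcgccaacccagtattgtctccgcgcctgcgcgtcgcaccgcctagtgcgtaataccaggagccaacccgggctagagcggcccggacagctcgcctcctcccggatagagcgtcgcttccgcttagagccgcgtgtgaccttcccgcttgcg
Mrps18c: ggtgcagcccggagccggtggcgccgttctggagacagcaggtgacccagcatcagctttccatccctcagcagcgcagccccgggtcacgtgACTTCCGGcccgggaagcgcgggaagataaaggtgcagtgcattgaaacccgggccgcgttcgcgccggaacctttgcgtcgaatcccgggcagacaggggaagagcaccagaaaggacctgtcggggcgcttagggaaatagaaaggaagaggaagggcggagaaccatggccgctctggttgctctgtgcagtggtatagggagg
Mrpl41: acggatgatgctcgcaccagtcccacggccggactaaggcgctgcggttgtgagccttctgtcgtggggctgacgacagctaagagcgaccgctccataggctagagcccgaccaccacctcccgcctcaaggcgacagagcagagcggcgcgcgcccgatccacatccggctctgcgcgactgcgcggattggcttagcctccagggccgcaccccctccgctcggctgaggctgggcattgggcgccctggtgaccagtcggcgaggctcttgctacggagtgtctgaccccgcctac
Mrpl33: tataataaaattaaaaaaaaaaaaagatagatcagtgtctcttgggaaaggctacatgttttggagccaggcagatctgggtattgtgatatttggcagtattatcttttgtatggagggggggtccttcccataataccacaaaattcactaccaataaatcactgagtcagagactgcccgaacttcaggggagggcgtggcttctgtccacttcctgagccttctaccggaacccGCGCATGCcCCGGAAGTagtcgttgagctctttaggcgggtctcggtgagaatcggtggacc

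The motifs searched, on both strands, were GCGCATGC, the core of the site of nuclear respiratory factor NRF1, CCGGAAGT, a site of ETS family factors such as GABPA, and AAGATGGCG, a site of YY1. All 3 factors are known regulators of nuclear genes for mitochondrial proteins. RefSeq windows were at hand for 67 of 76 members, 73 windows in all. GCGCATGC stood in 8 of these windows and in 2.71% of all 32851 mouse windows, CCGGAAGT in 12 (16.4%) and in 3.89%, and AAGATGGCG in 8 and in 1.40%. Any of the 3 was found in 35.6% of member windows and in 7.57% of all windows, and the member windows were richer in G and C (median 58.3% against 52.7%).

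Of the 5 promoters above, Mrpl33 held GCGCATGC and CCGGAAGT a single base apart, the former beginning 12 bases before the start of transcription and the latter 3 bases before it and running across it, and Mrps18c held CCGGAAGT on the opposite strand 157 bases before the start. Mrps33, Mrpl12 and Mrpl41, which had the highest Log2FC, held none of these letters in their windows. The other members with GCGCATGC were Mrpl9, Mrpl10, Mrpl17, Mrpl22, Mrpl32, Mrpl39 and Mrps18b. These matches are descriptions of sequence only.

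High fat diet was examined next in mice without the receptor, KO obese against KO lean. Mitochondrial ribosomal protein genes were mostly lower in KO obese livers: 2 of 76 rose and 20 fell at an adjusted p-value below 0.1, with a median Log2FC of -0.14, beside -0.00 over all 14213 genes. Over all genes 12.0% rose and 12.1% fell. KO lean mice serve both this comparison and the one above, so the values of the comparisons are given side by side and are not independent. The Log2FC was above 0 in 25 of 76 members, so the lower levels were not shared by all. After correction for transcript length and GC content, described below, 36 members were above 0 and their median was -0.03.

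Mrps23, a mitochondria-specific small subunit protein, had the smallest p. Its normalized counts were 372, 496 and 539 in KO obese mice (lowest, median and highest) and 575, 673 and 1010 in KO lean mice, so every KO obese mouse lay below every KO lean mouse. The Log2FC was -0.56 (SE 0.125, adjusted p = 0.0114). Mrps23 was the 1 member lower without overlap, where 1.11% of all genes were lower without overlap and 0.985% higher, the latter with 0 members. It lies on chromosome 11 from 88204388 to 88211507.

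Mrpl12 had a Log2FC of -1.04 (SE 0.237, adjusted p = 0.0127) and went from 3555, 9747 and 12077 in KO lean mice to 2704, 3663 and 5140 in KO obese mice. The KO lean replicate 5 was again the mouse that overlapped, at 3555. Mrpl53 went from 927, 1650 and 2396 to 697, 927 and 1228 (Log2FC -0.75, SE 0.197, adjusted p = 0.0218). Mrps33 went from 309, 724 and 876 to 243, 332 and 512 (Log2FC -0.77, SE 0.217, adjusted p = 0.028).

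Mrpl15, a large subunit protein with a bacterial homologue, went from 1199, 1437 and 1587 in KO lean to 940, 1103 and 1320 in KO obese mice (Log2FC -0.38, SE 0.102, adjusted p = 0.0227), with 6 of 7 KO obese mice below the KO lean range. Mrpl54 went from 602, 866 and 1097 to 453, 544 and 760 (Log2FC -0.57, SE 0.153, adjusted p = 0.0239), with 5 of 7 below. The other members named by rank of p were Mrpl41 (Log2FC -0.84), Mrps18c (-0.68), Mrpl30 (-0.47), Mrps31 (-0.47), Mrpl34 (-0.34) and Mrpl55 (-0.33). All of these fell, with adjusted p-values from 0.031 to 0.0494.

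The 2 members that rose in KO obese mice were Mrps25 (Log2FC 0.32, adjusted p = 0.0588) and Mrps5 (Log2FC 0.30, adjusted p = 0.0687), both of the small subunit. Mrps25 went from 123, 153 and 171 in KO lean to 153, 196 and 203 in KO obese mice. With 6073 and 4481 bases, these are among the longest transcripts of the list, and neither was called after correction for length and GC content (Log2FC 0.16 and 0.20). Mrps18a (Log2FC -0.16, 95% interval -0.38 to 0.06), Mrps18b (0.12, -0.15 to 0.39), Mrps30 (-0.29, -0.54 to -0.04) and Mrps36 (0.01, -0.44 to 0.46) did not pass the threshold. In KO lean and KO obese mice, respectively, Mrps18a spanned 342 to 526 and 327 to 429, Mrps18b 238 to 390 and 297 to 466, Mrps30 679 to 1146 and 679 to 949, Mrps18c 99.4 to 303 and 85.6 to 177, and Mrps36 26.6 to 58.3 and 26.7 to 57.9.

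In the large subunit 13 of 49 members fell and 0 rose (median Log2FC -0.19), and in the small subunit 7 of 26 fell and 2 rose (median -0.09). Of the members with a bacterial homologue 12 of 46 fell and 1 rose, and of the mitochondria-specific members 8 of 27 fell and 1 rose. Mrp63 fell with a Log2FC of -0.39 (SE 0.138, adjusted p = 0.0644), and Ict1 had a Log2FC of -0.09 (SE 0.109, adjusted p = 0.592).

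With equal read totals 5 members rose and 8 fell, where 2555 of 14213 genes rose and 628 (4.42%) fell, while the median of all genes moved to 0.14 and the members' median to 0.00. When the identifier number entered as a random block, 2 members fell and 0 rose, where 3.92% of all genes fell and 3.52% rose. The count of 22 became 34 without KO lean replicate 5, 10 without KO lean replicate 6, and 14, 12 and 10 without KO obese replicates 2, 3 and 7. For these fits, too, the share of all genes called is not given. All 7 Kupffer cell markers fell in this comparison, with a median Log2FC of -0.90 and summed normalized counts of 5188 to 7246 in KO obese against 9620 to 21450 in KO lean mice, without overlap. Of 4 lymphocyte markers tested 3 fell, and of 2 erythroid markers tested 1 fell. Their part in the result was not tested.

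**Figure D3:**
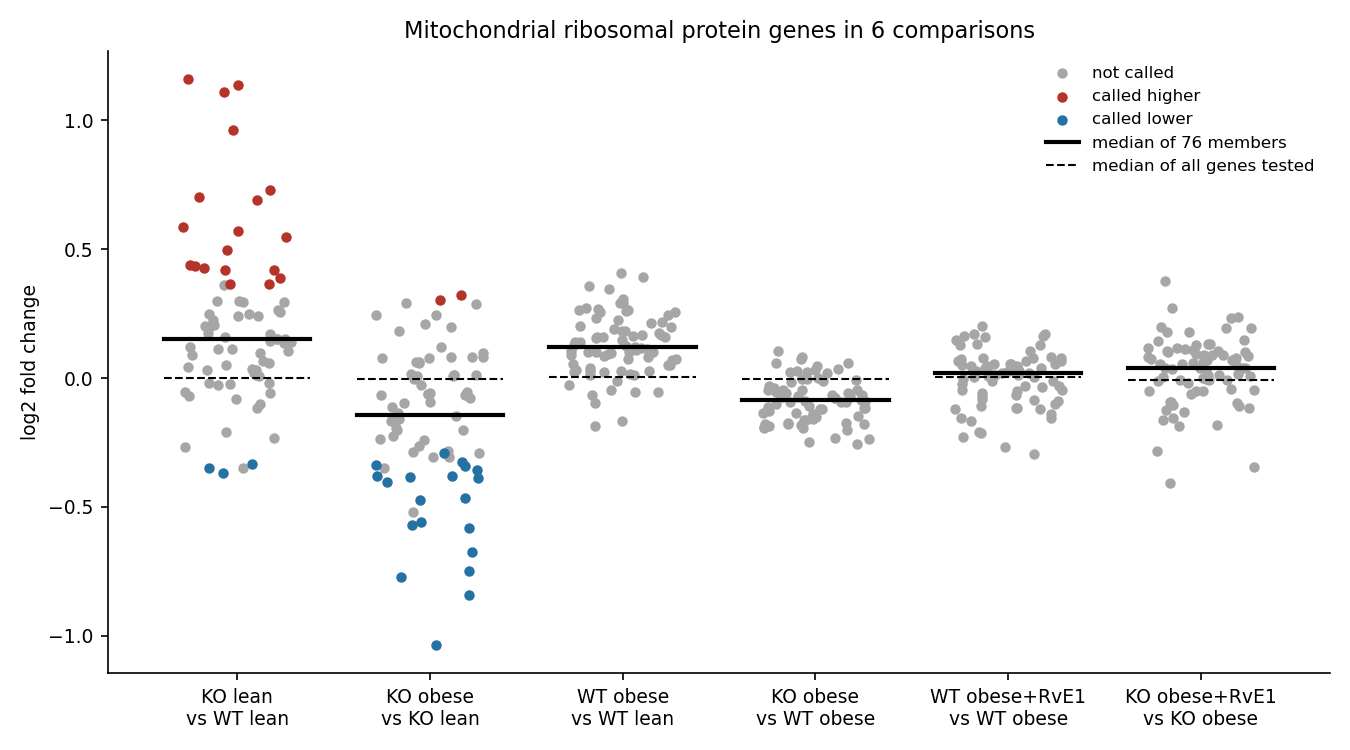
Log2 fold change of the 76 genes in the 6 comparisons. Each point is 1 gene, coloured where the adjusted p-value in limma was below 0.1, the solid line is the median of the 76 and the dashed line the median of all genes tested in that table. Called genes appear in KO lean against WT lean, with 19 higher and 3 lower, and in KO obese against KO lean, with 2 higher and 20 lower, and the other 4 comparisons hold none.

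Transcript length moved with the fold change in both comparisons. In KO lean against WT lean, all genes with transcripts under 1000 bases had a median Log2FC of 0.18, those from 1000 to under 2000 bases 0.14 and those of 2000 bases or more -0.06. The members had medians of 0.15, 0.13 and 0.17 in the same classes, and among the 23 members of 2000 bases or more 6 rose and 2 fell. The members' median was thus near that of all genes in the shorter classes and above it in the longest.

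In KO obese against KO lean, the medians of all genes in the same order of length were -0.19, -0.13 and 0.05, and those of the members -0.29, -0.06 and -0.14. After each library was corrected for transcript length and GC content by loess, 12 members rose and 4 fell in KO lean against WT lean with a members' median of 0.05, where 6.02% of all genes rose and 5.39% fell. In KO obese against KO lean 3 rose and 18 fell after the same correction with a median of -0.03, where 10.9% of all genes rose and 12.0% fell. The shift of the members as a set was thus mostly lost. In KO lean against WT lean, the members' median minus that of all genes went from 0.15 to 0.05. The members above 0 went from 59 to 45. In KO obese against KO lean the same difference went from -0.14 to -0.03, and the members above 0 from 25 to 36. Of the 29 named calls, 7 were lost with the correction. Over the fits that kept all mice, the Log2FC in KO obese against KO lean ran from -0.35 to -0.10 for Mrpl34 and from -0.67 to -0.28 for Mrpl54. The members named next kept most of their changes after the correction. Corrected Log2FC values in lean mice were 1.01 for Mrpl12, 0.96 for Mrpl41, 0.86 for Mrps33 and 0.75 for Mrps18c, and in KO mice -0.86 for Mrpl12 and -0.46 for Mrps23.

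**Figure D4:**
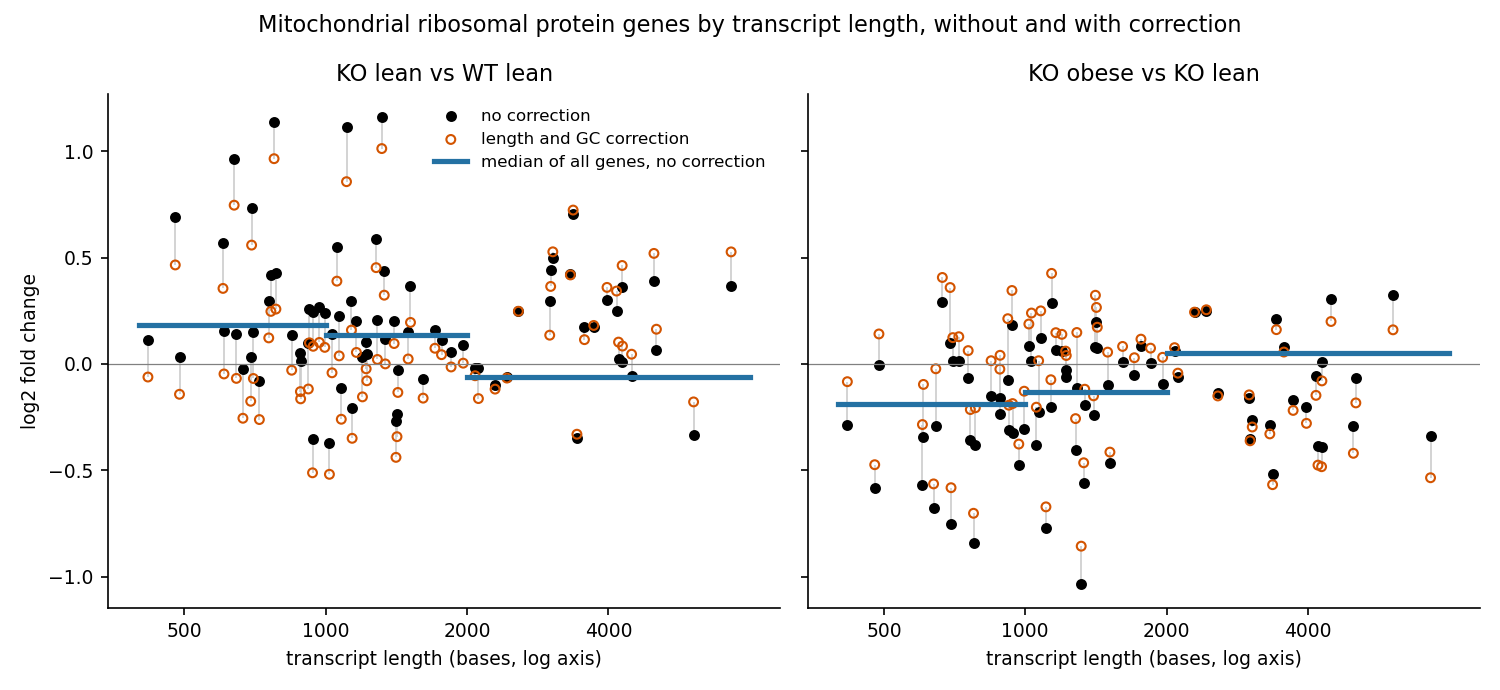
Log2 fold change against transcript length of the 76 genes. The horizontal log axis gives the length of the principal transcript in bases, filled points are uncorrected values, open points values after correction for length and GC content, and thick lines the medians of all genes in 3 length classes. Short transcripts lay above 0 on the left (median of all genes 0.18) and below 0 on the right (-0.19), and the points of Mrpl12 at 1316 bases stayed at 1.01 and -0.86 after correction.

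In WT mice, differences between the diets were small and none passed the threshold in limma. The Log2FC of WT obese against WT lean was above 0 in 67 of 76 members, with a median of 0.12 beside 0.00 over all 14012 genes, and ranged from -0.19 to 0.41. No member was called in limma, where 6.27% of all genes were, and 4 members had an unadjusted p-value below 0.05. The share of all genes below 0.05 is not given here, so the 4 members are not read as a result. edgeR called 0 members, where it called 6.41% of all genes, and DESeq2 called 2, where it called 9.76% of all genes. With the length and GC correction 57 members were above 0. Mrpl27 had 287, 409 and 490 normalized counts in WT lean and 406, 500 and 665 in WT obese mice (Log2FC 0.36, SE 0.128, adjusted p = 0.143).

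Mrps5 in the same comparison had 198, 211 and 241 against 215, 257 and 307 (Log2FC 0.26, SE 0.0983, adjusted p = 0.159), and Mrpl49 had 444, 490 and 589 against 475, 623 and 723 (Log2FC 0.27, SE 0.104, adjusted p = 0.175). All 3 overlapped between the groups. Mrpl12 had a Log2FC of 0.18 (95% interval -0.29 to 0.64). Kupffer cell markers had a median Log2FC of 0.02, with 0 of 7 called. Without WT obese replicate 1, 2 members were called, Mrps5 and Mrpl49.

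The difference between the diet effects was tested itself. The change in KO mice minus the change in WT mice had a median of -0.26 over the 76 members, with 15 values above 0, and a median of -0.01 over 13924 genes. With the length and GC correction the members' median was -0.12, with 27 values above 0. Mrpl12 had the value -1.21 (SE 0.342, 95% interval -1.91 to -0.51), Mrpl41 -1.23 (SE 0.352) and Mrps33 -1.18 (SE 0.342), each with an adjusted p of 0.141. No member passed the threshold in limma, where 0.00718% of all genes did. An unadjusted p-value below 0.05 was found for 28 of 76 members and for 2553 of 13924 genes. edgeR called 0 members, where it called 0.00718% of all genes. DESeq2 called 15 members lower, among 385 genes higher and 541 lower (3.89% of all genes), and limma with library quality weights called 25 lower, among 1284 genes higher and 1279 lower (9.19%). All 7 Kupffer cell markers also had negative values, with a median of -0.92. Their part in the result was not tested.

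In obese mice no difference of these genes between the genotypes passed the threshold. The Log2FC of KO obese against WT obese was above 0 in only 12 of 76 members, with a median of -0.09 beside -0.00 over 14162 genes, and ranged from -0.26 to 0.10. The size of these values did not exceed the spread between mice, and 0 members were called in limma, edgeR or DESeq2, where limma called 0.0141% of all genes. Mrps17 (Log2FC -0.16, SE 0.0719), Mrpl24 (-0.19, SE 0.089) and Mrps10 (-0.26, SE 0.132) had the smallest p, each with an adjusted p of 1.00, and 2 members had an unadjusted p-value below 0.05. This count of 2 is given without the share of all genes below 0.05 and is not read as a result. Mrps17 had 661, 708 and 792 normalized counts in WT obese and 607, 658 and 697 in KO obese mice. Mrpl12 had a Log2FC of -0.05, with a 95% interval from -0.48 to 0.39. The half-width of the 95% interval had a median of 0.25 over the members and a largest value of 0.52. For a member at that median, smaller differences were within the error, but members with narrower intervals can differ from this.

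RvE1 was tested in obese mice of each genotype. In WT obese+RvE1 against WT obese mice the members' median Log2FC was 0.02, with 45 of 76 above 0 and a range from -0.29 to 0.20. In KO obese+RvE1 against KO obese mice the median was 0.04, with 49 of 76 above 0 and a range from -0.41 to 0.38. No member was called in either comparison by limma, edgeR or DESeq2, and limma called 0% of all genes in both, at 2 and 1 members with an unadjusted p-value below 0.05. The difference between the genotypes' responses had a median of 0.05, with 0 members called by the 3 tools, 0% of all genes called in limma and 2 members with an unadjusted p-value below 0.05. The counts of members with an unadjusted p-value below 0.05 are given without the share of all genes and are not read as a result. The signs of such small medians depended on the fit. The median of this difference was 0.19 (66 of 76 above 0) with library quality weights and -0.02 (33 above 0) with the identifier block, and with the weights the median was 0.14 in KO and -0.02 in WT mice.

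The member with the smallest p in WT mice given RvE1 was Mrps9, with 208, 260 and 286 normalized counts in WT obese and 180, 202 and 218 in WT obese+RvE1 mice (Log2FC -0.29, SE 0.0919, adjusted p = 0.772). Mrpl18 (Log2FC -0.21) and Mrpl44 (0.17) followed. In KO mice it was Mrpl42, with 153, 169 and 212 in KO obese and 98.6, 127 and 176 in KO obese+RvE1 mice (Log2FC -0.41, SE 0.134, adjusted p = 0.557), followed by Mrps26 (0.38) and Mrps27 (0.24). The groups overlapped for each of these genes. The 95% interval of Mrpl12 ran from -0.29 to 0.54 in WT and from -0.50 to 0.89 in KO mice.

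Summed over the 76 genes, the normalized count per mouse ran from 33577 over a median of 40761 to 45898 in WT lean mice and from 39746 over 50004 to 60963 in KO lean mice of the same table. In the table of KO mice it ran from 43628 over 55075 to 67232 in KO lean and from 39083 over 42889 to 50680 in KO obese mice. The groups overlapped in both tables. The widest spread was found in KO obese+RvE1 mice, from 33536 to 64227 (SD 12197), against 39429 to 51081 (SD 3966) in KO obese mice of the same table. Of the 7 KO obese+RvE1 mice, 2 had 6 and 10 of the 76 genes above the mean of the table and 3 had 63, 65 and 67, so the spread was shared across much of the list.

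**Figure D5:**
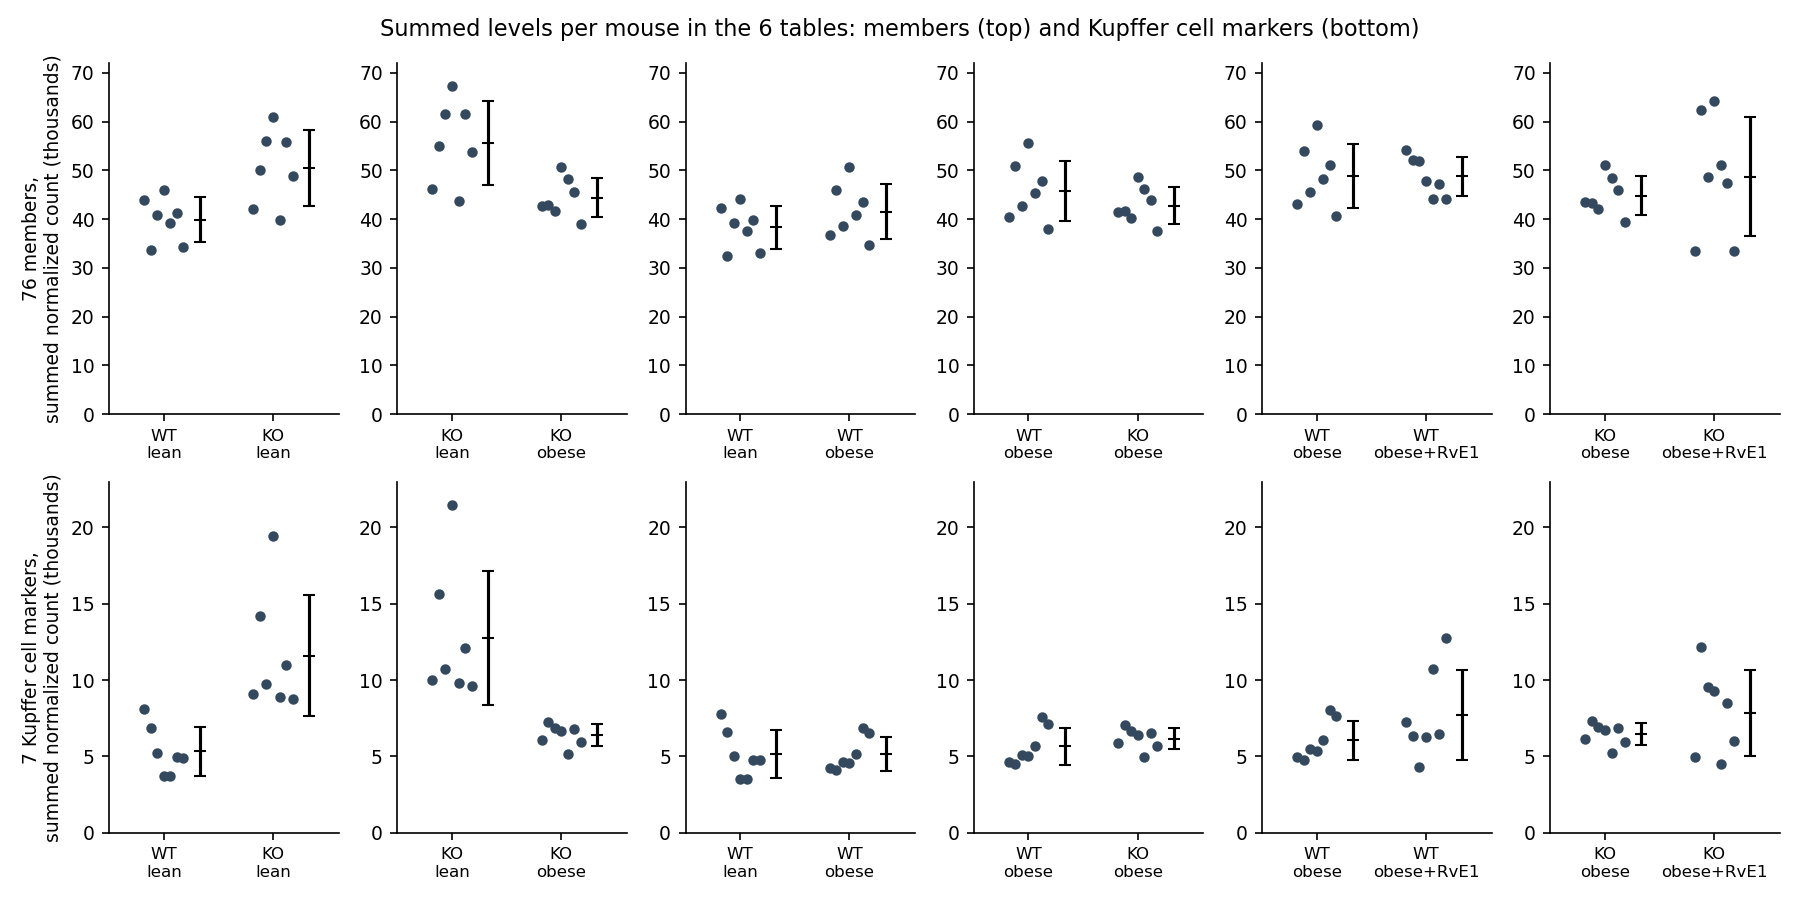
Summed normalized counts per mouse in the 6 tables, with axes in units of 1000 normalized counts. The upper row sums the 76 mitochondrial ribosomal protein genes and the lower row the 7 Kupffer cell markers, points are mice, bars give mean and SD of 7 mice, and each column is a table of its own. KO lean mice reached 60963 and 67232 in their tables, KO obese+RvE1 mice spread from 33536 to 64227, and the Kupffer cell markers of KO lean mice lay above those of WT lean and KO obese mice.

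The remaining genes of mitochondrial translation were followed as fixed lists. Over all genes, 8.00% were called higher and 8.30% lower in KO lean against WT lean. Whether the count of a list differed from such shares was not tested. In KO lean against WT lean, 6 of 26 genes for mitoribosome assembly and rRNA modification rose and 0 fell (median Log2FC 0.24). They included Malsu1, a factor of large subunit assembly (0.73, adjusted p = 0.039), Mrm2, listed as Ftsj2, an rRNA methyltransferase (0.76, adjusted p = 0.0461), and Rcc1l, listed as Wbscr16 (0.52, adjusted p = 0.0357). Of 6 mitoribosome proteins without an Mrp name 1 rose, the small subunit protein Chchd1 (1.19, adjusted p = 0.0308). Of 20 mitochondrial aminoacyl-tRNA synthetases 0 rose and 1 fell, Iars2 (-0.31).

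Of 16 mitochondrial translation factors, 2 rose and 1 fell in KO lean mice, beside the same 8.00% of all genes higher and 8.30% lower. Slirp, which binds mitochondrial mRNAs together with Lrpprc, rose (Log2FC 1.29, adjusted p = 0.0308) and Lrpprc fell (-0.61, adjusted p = 0.0347). The initiation factor Mtif3 rose (0.59, adjusted p = 0.0956). The elongation factor Tufm had a Log2FC of -0.06 (adjusted p = 0.724). Of 16 genes for mitochondrial DNA upkeep, transcription and RNA processing, 2 rose, Mterf2, listed as Mterfd3 (1.12, adjusted p = 0.0683), and Tfam, which packages mitochondrial DNA and starts its transcription (0.43, adjusted p = 0.076), and 1 fell, Twnk, listed as Peo1 (-0.36, adjusted p = 0.0629). The mitochondrial RNA polymerase Polrmt had a Log2FC of -0.15 (adjusted p = 0.53).

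Of 9 regulators of mitochondrial biogenesis, 1 rose and 2 fell in KO lean mice, again beside 8.00% of all genes higher and 8.30% lower. Esrra, an orphan nuclear receptor, rose (Log2FC 0.87, adjusted p = 0.0357), while the coactivator Pprc1 (-0.88, adjusted p = 0.0347) and Gabpb2, a partner of GABPA (-0.43, adjusted p = 0.0609), fell. Gabpa itself (-0.24, adjusted p = 0.105), Nrf1 (-0.15, adjusted p = 0.549) and Ppargc1a (-0.60, adjusted p = 0.414) did not pass the threshold.

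In KO obese against KO lean, 12.0% of all genes rose and 12.1% fell. Of 26 assembly genes 2 rose and 4 fell (Malsu1 -0.66, adjusted p = 0.0188), and 2 of 6 proteins without an Mrp name fell (Chchd1 -0.97, adjusted p = 0.0187). Of 16 translation factors 3 rose (Gfm1 0.48, Gfm2 0.35, Lrpprc 0.41) and 2 fell (Slirp -1.17, Mtif3 -0.63), and Tufm had a Log2FC of 0.08. Of 20 synthetases 2 rose and 1 fell. Of 16 genes for mitochondrial DNA upkeep and transcription 1 rose and 2 fell, Tfam among the latter (-0.47, adjusted p = 0.0273), and Polrmt had a Log2FC of 0.10. Of 9 regulators 3 rose (Pprc1 0.83, Gabpa 0.43, Gabpb2 0.39) and 1 fell (Esrra -0.97, adjusted p = 0.00518), while Nrf1 (0.09) and Ppargc1a (-0.32) were not called.

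In WT obese against WT lean, 3.65% of all genes were called higher and 2.61% lower. Of 20 synthetases 3 rose (Gatb, listed as Pet112, 0.48, Aars2 0.42 and Sars2 0.41), and of 16 translation factors 1 rose (Tsfm 0.44, adjusted p = 0.049). Of 16 genes for mitochondrial DNA upkeep, transcription and RNA processing 3 rose, with Hsd17b10, a subunit of mitochondrial RNase P, at 0.80 (adjusted p = 0.00375). No gene of the other 3 lists was called. Tfam (-0.09), Polrmt (-0.04), Tufm (0.09), Nrf1 (-0.03), Gabpa (0.13) and Ppargc1a (-1.02, adjusted p = 0.215) did not pass the threshold.

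The closest other groups were described in the same way. Over all genes, 8.00% rose and 8.30% fell in KO lean against WT lean, and 12.0% rose and 12.1% fell in KO obese against KO lean. Of 44 respiratory complex I genes (Nduf), 11 rose and 1 fell in KO lean against WT lean (median Log2FC 0.12), and 3 rose and 9 fell in KO obese against KO lean (median -0.16). For the cytosolic ribosome, 95 genes were taken by an Rpl or Rps name. That rule did not exclude other genes whose names begin alike, such as S6 kinase genes (Rps6k), so the set may hold genes outside the ribosome. Of these 95 genes, 13 rose and 3 fell in the first comparison with a median of -0.04. In the second, 1 rose and 35 fell with a median of -0.26. In WT obese against WT lean the same genes had a median of -0.22, with 10 of 95 above 0, where 67 of the 76 mitochondrial ribosomal protein genes were above 0. The differences between these groups of genes were not tested.

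Of the 76 genes, 41 share bases with another annotated gene and 26 with a protein-coding gene, mostly on the opposite strand. Mrpl12 overlaps the noncoding Gm16755 by 2244 bases, Mrpl33 overlaps Rbks, Mrpl53 overlaps Gm42688 on its own strand, Mrpl40 overlaps Gm28539, Mrps30 overlaps B430218F22Rik, and Mrps25 overlaps Nr2c2. Mrpl46 and Mrps11 overlap each other by 413 bases, and Mrpl47 overlaps Ndufb5 and Actl6a. The strand setting of the read counting was not given in the sources used here, so reads of such pairs may not be told apart.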

How the data were processed

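Livers of 42 mice were profiled by RNA-seq (7 in each of 6 groups, assigned by the labels). Per the study's methods, the authors aligned reads to mm10 with Bowtie2, counted them with featureCounts and normalized each comparison's table by DESeq2 size factors. Their versions and the annotation: not given in the sources used here. The labels name polyA RNA where the methods name a total RNA kit. The deposited values are normalized read counts (unit: signal), 14 libraries per table. Every value in every library came out within 0.1 reads of a whole number after division by the library's step, so reads were recovered for count tests. The tables' columns of the authors' own comparisons (fold changes and p-values) were not used. No per-sample column was left unmapped (0).

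Genes averaging 5 or more normalized counts were tested with limma 3.58.1 (R 4.3.3; trend) on log2(normalized count + 1), so fold changes of low genes are understated, with BH adjustment over all genes of a table and a call at adjusted p below 0.1. The differences of diet and RvE1 effects between genotypes were formed from the within-table differences. edgeR 4.0.16, DESeq2 1.42.0, other pseudocounts (0.5 and 4), no filter, TMM, equal read totals, length and GC correction (loess, span 0.3), library quality weights, an identifier-number block, stricter thresholds and leaving out each mouse were alternatives. The test was tested on simulated data. Names were matched to GENCODE M21 (GRCm38) for 19465 of 19758 genes (98.5%), which gave transcript lengths and coordinates. Promoters come from RefSeq GRCm38.p6.

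The genes and lists were chosen with earlier results of these data known. Named were the called genes (where over 20, the 12 in each direction with the smallest p, and where under 4, the 3 genes with the smallest p), the 5 highest and 5 lowest per kilobase, and members with special roles. From other lists up to 4 called genes were named, with Tfam, Polrmt, Tufm, Nrf1, Gabpa and Ppargc1a always. Mice count as replicates. Intervals are for the difference of group means and take every mouse as independent. The correlation between mice of the same identifier number, over all genes, was 0.22 in KO lean against WT lean. In KO obese against KO lean it was 0.24. The printed SEs, intervals and adjusted p-values leave this out.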

Additional observations from a re-analysis of the deposited data

How the results depend on the processing

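Directions of the 41 named fold changes were kept under every alternative that was run, in limma, edgeR and DESeq2 alike. The count of called genes in KO lean against WT lean was 22 (19 higher, 3 lower) and became 12 (7 and 5) with equal read totals, 0 when the identifier number entered as a random block, 5 at adjusted p under 0.05 and 8 with a fold change above 1.5 in addition. In KO obese against KO lean 22 (2 higher, 20 lower) became 13 (5 and 8) with equal read totals, 37 with library quality weights (40.4% of all genes were then called, against 24.1%), 2 with the block, 12 at adjusted p under 0.05 and 5 above 1.5-fold. In WT obese against WT lean 0 became 1 with library quality weights (11.5% of all genes called) and 2 in DESeq2 (9.76%). In the diet by genotype difference 0 became 25 with the weights (18.4% of all genes called) and 15 in DESeq2 (6.65%). Other alternatives kept these counts within 1.5 times, and the RvE1 comparisons, KO obese against WT obese and the RvE1 by genotype difference stayed at 0. Leaving out 1 mouse at a time gave 4 to 31 in KO lean against WT lean, 10 to 34 in KO obese against KO lean, 0 to 2 in WT obese against WT lean and 0 in the other 3 comparisons. It was not run for the differences between genotypes. Leaving out, as chosen after seeing the data, the mice of identifier number 8 gave 13, those of 9, 21 or 26 gave 0 each, and those of 14, 19 or 20 gave 15, 23 and 22. For the 2 stricter thresholds and for the fits without 1 mouse or 1 identifier number, the share of all genes called is not given. Those counts thus have no background beside them. The cause of these changes was not tested. Of the 29 named values that were called, the block ended the call of 27, equal totals of 9 and the length and GC correction of 7. No paired analysis was possible because the labels give no replicate numbers, and of the identifier numbers only 23 occurs in both groups of a comparison (KO obese and KO obese+RvE1), so that the block was random. Depth limited little, as the lowest mean normalized count of a member was 29.5.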
